A study of Homo sapiens with 12 samples.

Results

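Noncoding snoRNA host genes make a spliced RNA from their exons and small nucleolar RNAs (snoRNAs) from their introns. The 10 genes described here are GAS5, SNHG1, SNHG5, SNHG6, SNHG8, SNHG12, SNHG15, ZFAS1, EPB41L4A-AS1 and DANCR, picked as hosts with a terminal oligopyrimidine start or sensitive to RNA decay. They were found by symbol from 60664 genes in the count table, each symbol matched 1 Ensembl identifier, and all 10 were among the 17349 genes that passed the filter on low counts. RNA was measured in the B-cell acute lymphoblastic leukaemia lines TOM-1, which carries the Philadelphia chromosome, and RS4;11, which carries a rearrangement of KMT2A. Each line was cultured for 24 h either as a control or with 1000 ng/ml ADI-PEG20, a pegylated arginine deiminase that converts the arginine of the medium to citrulline, and each of the 4 groups had 3 poly(A)-captured libraries. Both lines carry the label wild type and were kept in the same serum-supplemented medium. Each line is a single model of its kind of leukaemia, and nothing states that the libraries came from separate cultures, so the p-values measure the spread between libraries, which may be technical.

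The snoRNAs of these genes guide the chemical modification of ribosomal RNA and other RNAs, and are trimmed out of the excised introns. The remaining spliced RNA has no long open reading frame. For several hosts, GAS5 and ZFAS1 among them, it is known to be bound by ribosomes and then destroyed by nonsense-mediated decay, the pathway that removes RNAs with an early stop codon, so that it builds up when translation is slowed. Many hosts also start with a run of pyrimidines, the terminal oligopyrimidine (TOP) tract, by which growth signals through mTORC1 control the translation of ribosomal protein mRNAs. Translation and decay were not measured in these libraries, and the counts report the amount of RNA only.

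The starts of the host genes are shown because the tract is read there. The genes were picked partly as TOP-type hosts, so its share among them is a description. RefSeq windows on GRCh38.p14 were found for 8 of the 10 genes, and the 70 bases from 40 before the annotated start to 30 from it on are printed 5′ to 3′ on the strand of the gene. Capitals mark the pyrimidine run that covers the start base, and the letters TATAA where they begin 40 to 15 bases before it.
SNHG12: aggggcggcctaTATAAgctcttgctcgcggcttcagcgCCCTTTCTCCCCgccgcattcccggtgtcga
ZFAS1: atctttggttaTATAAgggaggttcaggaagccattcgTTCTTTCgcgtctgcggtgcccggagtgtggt
SNHG5: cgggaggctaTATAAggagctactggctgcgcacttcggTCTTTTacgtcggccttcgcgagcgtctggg
SNHG8: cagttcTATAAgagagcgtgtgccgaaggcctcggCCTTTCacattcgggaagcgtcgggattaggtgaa
SNHG1: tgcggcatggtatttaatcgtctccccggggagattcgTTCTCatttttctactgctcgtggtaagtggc
EPB41L4A-AS1: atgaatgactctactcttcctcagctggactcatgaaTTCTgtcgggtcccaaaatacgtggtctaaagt
GAS5: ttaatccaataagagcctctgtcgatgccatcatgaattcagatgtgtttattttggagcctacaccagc
DANCR: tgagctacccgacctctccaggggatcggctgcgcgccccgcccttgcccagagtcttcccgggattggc

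These windows lie at chr1:28581844-28581913 (minus strand) for SNHG12, chr20:49278602-49278671 (plus) for ZFAS1, chr6:85678704-85678773 (minus) for SNHG5 and chr4:118278722-118278791 (plus) for SNHG8. The other windows lie at chr11:62855856-62855925 (minus) for SNHG1, chr5:112160486-112160555 (plus) for EPB41L4A-AS1, chr1:173869016-173869085 (minus) for GAS5 and chr4:52712354-52712423 (plus) for DANCR. A run of at least 5 pyrimidines covered the start base in 5 of the 8 genes, and in 9.6% of 34943 RefSeq windows of the same length. It was longest in SNHG12, with 12 bases, against 7 in ZFAS1, 6 in SNHG5 and in SNHG8, and 5 in SNHG1. These lengths include bases before the start. C at the start base with at least 4 further pyrimidines after it was present in 3 of the 8 genes and in 4.06% of all windows. The 3 were SNHG12, ZFAS1 and SNHG5, so the runs of SNHG8 and SNHG1 did not meet this stricter form. The start base of GAS5 is A and that of DANCR is G, so neither has a run at the RefSeq start read here. For GAS5 this window lies wholly outside the gene as GENCODE places it, which ends at 173868882. The bases at the GENCODE start of GAS5 were not examined, so a tract there is not excluded. The run of EPB41L4A-AS1 has 4 bases. TATAA, searched on the strand of the gene after the windows had been seen, was present in SNHG12, ZFAS1, SNHG5 and SNHG8, and in 4.06% of all windows. Both features were present together in these 4 genes and in 0.298% of all windows. TGATGNAA, the letters of a binding element of ATF4, was searched on both strands of the whole window of 300 bases. It was present in 0 of the 8 genes and in 3.62% of all windows, and the missing letters say nothing about the factor. Only 1 RefSeq start was read for each gene, and which start these cells use was not measured.

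In TOM-1 most of the host genes rose with ADI-PEG20 and DANCR fell, though for several of them this rested on whether TOM-1 control replicate 3, a library that stood apart, was included. Without that library, which left 2 TOM-1 controls, ZFAS1 rose 2.75-fold, SNHG12 2.71-fold, EPB41L4A-AS1 2.50-fold and SNHG8 2.35-fold, and DANCR fell to 0.39 of its control level. Over all libraries the fold changes were 2.02 for ZFAS1, 2.30 for SNHG12, 1.79 for EPB41L4A-AS1, 1.58 for SNHG8 (not called) and 0.293 for DANCR. With all 12 libraries, 6 genes were called (edgeR, adjusted p), 5 higher and 1 lower, where 31.9% of all tested genes were called, 15.9% as higher. Without TOM-1 control replicate 3, 8 were called, 7 higher and 1 lower, where 41.6% of 18321 genes were called, 21.8% as higher and 19.8% as lower. In RS4;11, 0 of the 10 were called in either fit, where 0.0% and 0.317% of tested genes were called.

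**Figure D1:**
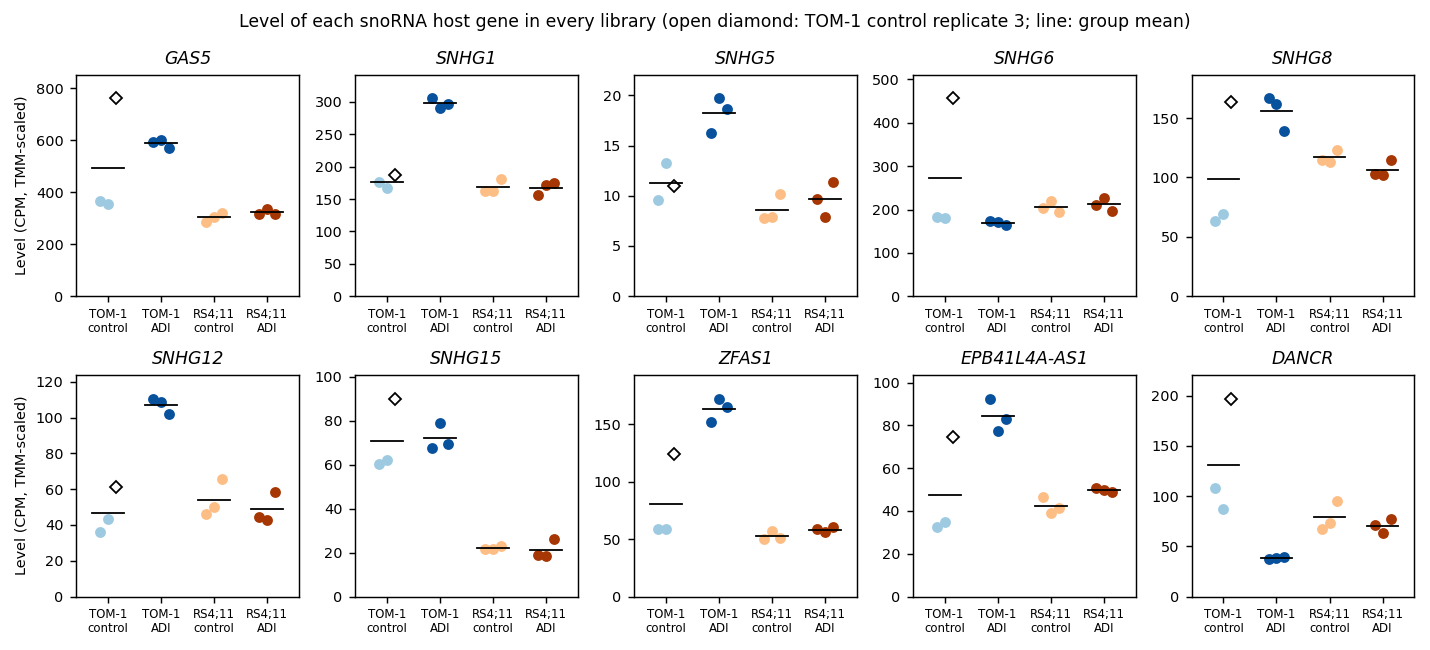
Level of each host gene, in TMM-scaled CPM (counts of the gene relative to the scaled library total), in each of the 12 libraries, with 3 points a group and a line at the group mean; ADI stands for ADI-PEG20. The open diamond is TOM-1 control replicate 3, which lies far above the other TOM-1 controls for GAS5 and SNHG6 and among them for SNHG5.

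TOM-1 control replicate 3 stood apart from the other libraries. It had reads in 14963 genes, against 19857 to 21997 elsewhere, and 19.75% of its counts fell in ribosomal protein genes, against 5.91% to 9.89% in the other 11 libraries. Total counts ran from 18958144 to 35956959. Host genes were also high in it. Relative to the mean of control replicates 1 and 2, SNHG6 stood at 2.51 times, SNHG8 at 2.47, EPB41L4A-AS1 at 2.21, GAS5 at 2.12, ZFAS1 at 2.10 and DANCR at 2.02 times. SNHG12 (1.54), SNHG15 (1.47), SNHG1 (1.09) and SNHG5 (0.963) were raised less or not at all. The median log2 ratio was 1.04 for the 10 genes, 1.37 for 83 ribosomal protein genes and -0.21 for all genes. Across 17072 genes the ratio had a Spearman's rho of -0.201 with exonic length. Fold changes of the 10 genes in TOM-1 are therefore given with and without this library. The lines themselves matched their labels as B lymphoblasts: all 7 B-lineage markers had reads in every group, with summed levels of 5150 to 6440 CPM in TOM-1 control, 5270 to 5510 CPM in treated TOM-1 and 1740 to 2070 CPM in RS4;11. T cell and erythroid markers summed to at most 0.319 CPM in any library. Myeloid markers summed to 9.79 to 22.3 CPM in TOM-1, nearly all of it MPO, and to 0.768 to 2.44 CPM in RS4;11; the part of such cells in the results was not tested.

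ZFAS1 hosts 3 C/D box snoRNAs. It had 59.2, 59.1 and 124 CPM in TOM-1 control replicates 1, 2 and 3, and 152, 172 and 165 CPM with ADI-PEG20. The groups did not overlap, and the highest control was replicate 3. ZFAS1 rose by 1.01 on the log2 scale (SE 0.24, edgeR adjusted p = 0.00725), and 1.46 (SE 0.08, adjusted p = 6.31e-12) without that library. In RS4;11 ZFAS1 had 50.04, 57.5 and 51.3 CPM in control and 58.7, 56.1 and 60.3 CPM with ADI-PEG20, with overlapping groups.

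SNHG12 hosts 4 snoRNAs. Its levels in TOM-1 were 35.98, 43.1 and 61.0 CPM in control and 111, 109 and 102 CPM with ADI-PEG20, so that every treated library lay well above every control. SNHG12 rose by 1.20 on the log2 scale (SE 0.21, edgeR adjusted p = 0.0011), and 1.44 (SE 0.14) without TOM-1 control replicate 3. RS4;11 had 46.0, 50.1 and 66.0 CPM in control and 44.6, 43.0 and 58.5 CPM with ADI-PEG20, again with overlap.

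SNHG1 hosts a cluster of C/D box snoRNAs and has served as a textbook example of a gene whose introns carry the function. It stood at 176, 167 and 187 CPM in the TOM-1 controls and at 306, 291 and 297 CPM with ADI-PEG20. The groups were far apart, and control replicate 3 was close to its fellows. SNHG1 rose by 0.75 on the log2 scale (SE 0.10, edgeR adjusted p = 2.48e-04), and this hardly moved without that library (0.79, SE 0.07). RS4;11 stayed between 156 and 181 CPM in both conditions.

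EPB41L4A-AS1 hosts SNORA13. It had 32.7, 34.6 and 74.4 CPM in the TOM-1 controls and 92.5, 77.5 and 82.9 CPM with ADI-PEG20. Control replicate 3 came within a few CPM of the lowest treated library, although the groups did not overlap. EPB41L4A-AS1 rose by 0.84 on the log2 scale (SE 0.26, edgeR adjusted p = 0.0263) and 1.32 (SE 0.10, adjusted p = 4.14e-10) without that library. Leaving out any other single library of TOM-1 ended that call (edgeR adjusted p from 0.0619 to 0.0922), as did upper-quartile scaling (0.0646). RS4;11 had 46.4, 38.9 and 41.5 CPM in control and 50.5, 49.98 and 48.9 CPM with ADI-PEG20. This was the only one of the 10 genes whose RS4;11 groups did not overlap, where 16.8% of all tested genes did not, 7.72% with the treated group higher (16.3% and 7.54% without TOM-1 control replicate 3). The change in RS4;11 (log2 0.24, edgeR adjusted p = 1) was not called, nor was it without TOM-1 control replicate 3 (edgeR adjusted p = 0.24).

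SNHG8, host of SNORA24, had 63.3, 69.3 and 164 CPM in the TOM-1 controls and 167, 162 and 139 CPM with ADI-PEG20. Control replicate 3 lay inside the range of the treated libraries, so the groups overlapped with all libraries and were far apart without it. Over all libraries SNHG8 differed by 0.66 on the log2 scale (SE 0.285, edgeR adjusted p = 0.0994), not called, and 1.23 (SE 0.09, adjusted p = 1.84e-10) without that library. RS4;11 had 113 to 123 CPM in control and 102 to 115 CPM with ADI-PEG20.

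GAS5, named for its build-up in growth-arrested cells and host of a long series of C/D box snoRNAs, had the highest CPM of the 10 genes in every group. Its TOM-1 controls had 365, 355 and 761 CPM, and the treated libraries 594, 599 and 571 CPM. Control replicate 3 was the highest TOM-1 library of all, while replicates 1 and 2 lay well below the treated libraries. Over all libraries GAS5 differed by 0.25 on the log2 scale (SE 0.235, adjusted p = 0.463 in edgeR), which was not called. Without control replicate 3 GAS5 rose by 0.71 on the log2 scale (SE 0.06, edgeR adjusted p = 3.74e-09). RS4;11 had 285, 305 and 322 CPM in control and 318, 334 and 315 CPM with ADI-PEG20.

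SNHG5 had the fewest counts, from 163 to 516 in a library. Its TOM-1 levels were 9.58, 13.2 and 11.0 CPM in control and 16.2, 19.7 and 18.7 CPM with ADI-PEG20, without overlap. SNHG5 rose by 0.69 on the log2 scale (SE 0.19, edgeR adjusted p = 0.017) with all libraries and 0.68 without control replicate 3. That call was lost without control replicate 1 (edgeR adjusted p = 0.0692), treated replicate 2 (0.076) or treated replicate 3 (0.0599). RS4;11 ran from 7.77 to 11.4 CPM.

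SNHG15, host of SNORA9, and SNHG6 were not called in TOM-1 in either of these fits. SNHG15 had 60.4, 62.0 and 90.0 CPM in control and 67.3, 79.0 and 69.3 CPM with ADI-PEG20. Its log2 fold change was 0.02 (SE 0.18), and 0.23 (SE 0.12, edgeR adjusted p = 0.136) without control replicate 3. SNHG6, host of SNORD87, had 183, 181 and 457 CPM in control and 173, 171 and 165 CPM with ADI-PEG20. The treated libraries lay just below control replicates 1 and 2, and far below replicate 3. Its log2 fold change was -0.69 (SE 0.285, edgeR adjusted p = 0.0847), and -0.11 (SE 0.07, adjusted p = 0.232) without that library. SNHG6 was called lower when control replicate 1 or replicate 2 was left out instead, with edgeR adjusted p of 0.0214 and 0.019, and by DESeq2 over all libraries (-0.75, adjusted p = 0.0445).

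DANCR, the host of SNORA26 and also known as a regulator of cell differentiation, moved the other way. It had 108, 87.6 and 197 CPM in the TOM-1 controls and 37.2, 38.6 and 38.9 CPM with ADI-PEG20. All treated libraries lay below all controls, and they agreed closely with each other. The log2 fold change was -1.77 (SE 0.26, edgeR adjusted p = 3.81e-04), and -1.36 (SE 0.12, adjusted p = 5.15e-09) without control replicate 3. RS4;11 had 67.3, 73.4 and 95.5 CPM in control and 71.3, 63.5 and 77.1 CPM with ADI-PEG20, with overlap.

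The groups of TOM-1 libraries did not overlap for 7 of the 10 genes, where 46.2% of tested genes did not (26.1% with the treated group higher), and for 10 of 10 without control replicate 3, where 59.0% did not (31.0% with it higher). Among these genes the treated group was lower for SNHG6 and DANCR, in either set of libraries, and higher for the rest. The median log2 fold change of the 10 genes in TOM-1 was 0.68, against 0.05 for all tested genes, and 0.75 against 0.00 without control replicate 3. In RS4;11 it was 0.01 against 0.00. In RS4;11 0 of the 10 genes had an unadjusted edgeR p under 0.05 with all libraries, where 1.87% of tested genes did, and 1, EPB41L4A-AS1, without TOM-1 control replicate 3, where 12% did (2207 of 18321). DESeq2 and limma with sample quality weights also called 0 in RS4;11. In RNA from whole cultures a larger share of counts for a gene cannot be told apart from less RNA of other genes per cell.

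**Figure D2:**
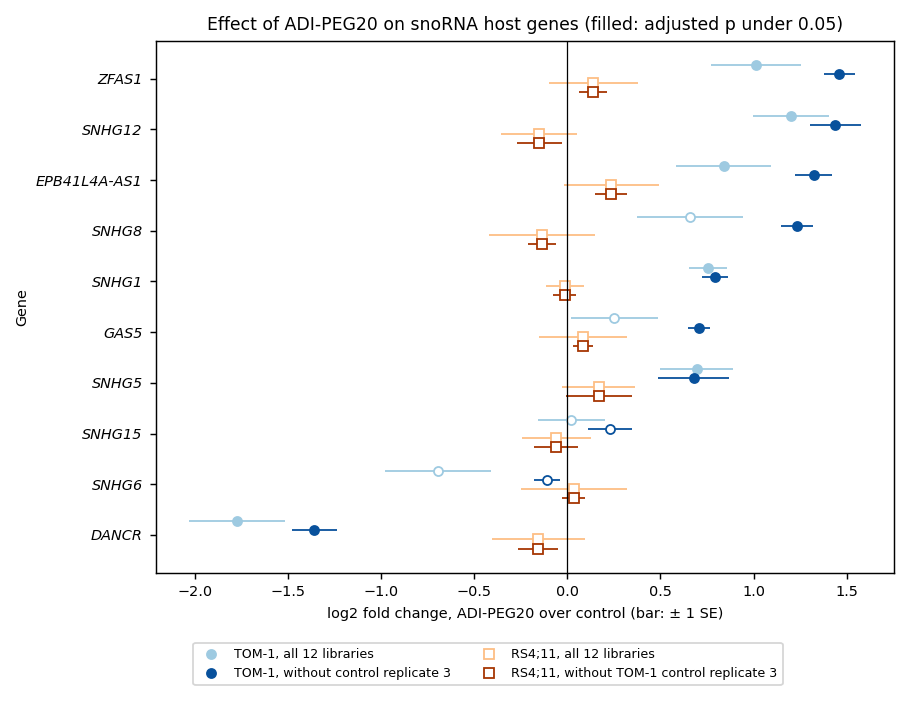
Log2 fold change of each host gene with ADI-PEG20 over control (x axis, bars ± 1 SE), in TOM-1 (circles) and RS4;11 (squares), in the fits with and without the third TOM-1 control library; filled symbols passed the threshold. In TOM-1 SNHG12 (1.20, all libraries) and ZFAS1 (1.46, without that library) are highest and DANCR is lowest, while all RS4;11 symbols are open and lie between -0.16 and 0.24.

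The difference of the effect between the lines was then tested. It was called for 3 of the 10 genes, where 11.9% of tested genes were called, 5.89% in the positive and 6.05% in the negative direction. SNHG12 (log2 difference 1.35, SE 0.29, edgeR adjusted p = 0.0113) and SNHG1 (0.77, SE 0.14, adjusted p = 0.00591) rose more in TOM-1. DANCR fell more there (-1.62, SE 0.36, adjusted p = 0.0128). Each of these 3 calls was kept in all 12 fits that left out 1 library. Without TOM-1 control replicate 3, 7 of the 10 were called, where 30.4% of tested genes were. The additional ones were SNHG8 (1.37), ZFAS1 (1.32), EPB41L4A-AS1 (1.09) and GAS5 (0.62). SNHG5 (0.51, SE 0.26), SNHG15 (0.29, SE 0.17) and SNHG6 (-0.14, SE 0.09) were not called in that fit.

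Between the control cultures SNHG15 differed most. It stood at 70.8 ± 16.6 CPM (SD, n = 3) in TOM-1 and 21.9 ± 0.835 CPM in RS4;11, with no overlap, a log2 difference of 1.69 (SE 0.19, edgeR adjusted p = 1.95e-05), and 1.48 without TOM-1 control replicate 3. SNHG15 was thus 3.22-fold higher in TOM-1, and this call was kept in all 12 fits that left out 1 library. With all libraries GAS5 (log2 0.70, edgeR adjusted p = 0.0377) and DANCR (0.73, adjusted p = 0.04) were also called higher in TOM-1, making 3 of 10 where 34.7% of tested genes were called. Of 12 fits that each dropped a library, GAS5 was called in 3 and DANCR in 4, with edgeR adjusted p up to 0.124 and 0.143. Without TOM-1 control replicate 3, 7 of 10 were called where 52.8% of tested genes were, 25.4% as higher and 27.5% as lower. SNHG15, GAS5 (0.24) and DANCR (0.31) were then higher in TOM-1. SNHG8 (-0.82), SNHG12 (-0.46), EPB41L4A-AS1 (-0.33) and SNHG6 (-0.19) were lower. The control groups did not overlap for 3 of 10 genes with all libraries and 7 of 10 without that one, where 42.7% and 66.5% of tested genes did not (18.2% and 32.9% with TOM-1 higher). TOM-1 was higher for GAS5, SNHG15 and ZFAS1 in both. The further genes, SNHG6, SNHG8, SNHG12 and EPB41L4A-AS1, were lower in TOM-1. These control libraries also enter the TOM-1 effect, so the comparisons are not independent.

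Across the 4 groups, SNHG1 had its highest level in treated TOM-1 (298 ± 7.38 CPM, SD, n = 3), and the other groups, at 177, 169 and 167 CPM, overlapped. ZFAS1 (163 ± 10.5 CPM), SNHG12 (107 ± 4.36 CPM) and EPB41L4A-AS1 (84.3 ± 7.62 CPM) were also highest there, with no library of another group inside their range. DANCR was lowest in treated TOM-1 (38.2 ± 0.913 CPM), below every library of RS4;11. SNHG15 lay higher in every TOM-1 library (at least 60.4 CPM) than in any RS4;11 library (at most 26.2 CPM). Per kilobase of annotated exonic sequence in TOM-1 control replicates 1 and 2, SNHG6 had the highest level (146 CPM per kb), followed by GAS5 (99.1), SNHG8 (71.8), SNHG1 (45.7), DANCR (42.7), ZFAS1 (26.4), SNHG15 (16.8), EPB41L4A-AS1 (10.1), SNHG12 (9.26) and SNHG5 (4.06). In treated TOM-1 SNHG8 led this order with 169 CPM per kb and GAS5 followed with 162. Exonic lengths join all annotated transcripts, which overstates the length of the main spliced form where retained introns are annotated.

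The same comparison was made for related gene lists, to be read against the shares of all tested genes called in TOM-1, 15.9% as higher and 15.9% as lower with all libraries and 21.8% and 19.8% without control replicate 3. Of these lists some share genes (NOP56 is both a host and a snoRNP protein). Ribosomal protein mRNAs that host snoRNAs in their introns moved opposite to most of the 10 noncoding hosts in TOM-1. All 23 were called lower, with a median log2 fold change of -1.32, and all 23 were called lower without control replicate 3, with a median of -0.70. With all libraries RPL7A (-1.90, SE 0.27, edgeR adjusted p = 2.96e-04) and RPL3 (-1.64, SE 0.28) had the lowest values, which were -1.39 and -1.10 without control replicate 3. In that list 0 were called in RS4;11, with a median of 0.01. The fall was not particular to ribosomal protein genes that host snoRNAs. Of all 83 ribosomal protein genes tested, these hosts among them, 78 were called lower in TOM-1 (median -1.31). Without control replicate 3, 76 were called lower (median -0.68).

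Other TOP mRNAs, such as elongation factors, fell too. Of 19 tested 17 were called lower and 0 higher, and 18 lower without control replicate 3 (median -0.79). VIM, an intermediate filament protein, had a log2 fold change of -2.02, and -1.54 without that library. Protein-coding snoRNA hosts outside the ribosomal proteins were mostly lower. Of 23, 15 were called lower and 1 higher, and 18 lower and 2 higher without control replicate 3. HSPA8, a heat-shock cognate chaperone, had a log2 fold change of -2.74 (SE 0.11) and NOP56, a core protein of C/D box snoRNPs, one of -1.23 (SE 0.17). Without that library these were -2.63 and -0.96. TAF1D, a subunit of an RNA polymerase I factor, rose by 0.50 (SE 0.13, edgeR adjusted p = 0.0117), and by 0.49 without it.

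Noncoding hosts outside the 10 genes were mixed. Of 20 listed 18 were tested. With all libraries 1 was called higher and 4 lower, and without control replicate 3, 5 higher and 5 lower, with medians of -0.23 and 0.13. SNHG32 rose from 157 to 314 CPM in TOM-1 (log2 1.00, SE 0.22, edgeR adjusted p = 0.00432), while SNHG4 fell from 50.9 to 9.86 CPM (-2.37, SE 0.20, adjusted p = 1.28e-05) and SNHG3 from 80.1 to 31.6 CPM (-1.34, SE 0.20). Without control replicate 3 the log2 fold changes of SNHG32, SNHG4 and SNHG3 were 1.37, -2.25 and -1.10. Among all 2770 tested genes of the noncoding types 11.4% were called in TOM-1, 195 higher and 120 lower, with a median of 0.08. In RS4;11, 0 of the 18 hosts were called in either fit.

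**Figure D3:**
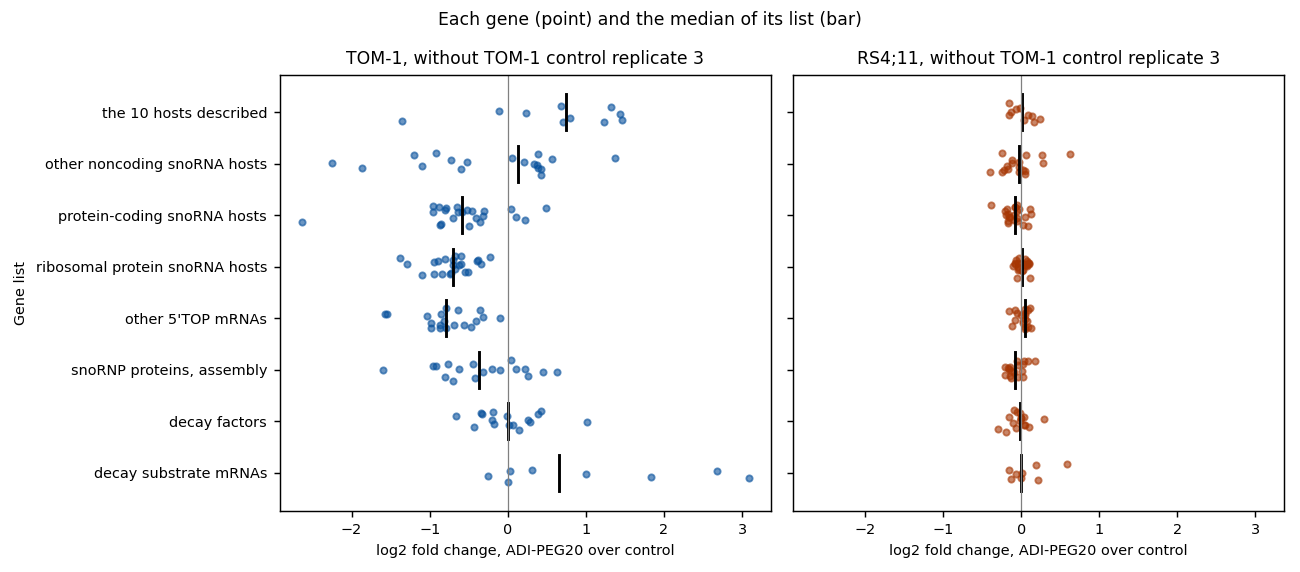
Log2 fold change with ADI-PEG20 of each gene (point) of 8 lists in TOM-1 (left) and RS4;11 (right), fitted without TOM-1 control replicate 3, with a bar at the median of each list; the vertical spread of points has no meaning. In TOM-1 the 10 hosts have a median of 0.75 and the ribosomal protein snoRNA hosts one of -0.70, while in RS4;11 all medians lie near 0.

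Genes for the proteins that build snoRNPs were lower on balance in TOM-1, with 10 of 18 called lower and 3 higher, and 10 and 4 without control replicate 3. NHP2, of H/ACA snoRNPs, had a log2 fold change of -2.07 (SE 0.27) and FBL, the C/D box methyltransferase, one of -1.51 (SE 0.29), while the assembly factors RPAP3 and NUFIP1 rose by 0.80 and 0.57. Without that library NHP2 was at -1.60, FBL at -0.91, RPAP3 at 0.63 and NUFIP1 at 0.45. Of the nonsense-mediated decay factors 3 of 16 were called higher, a share near the 15.9% of all tested genes, and 5 lower. Without control replicate 3, 5 were called higher and 6 lower. UPF3B rose by 1.07 (SE 0.12, edgeR adjusted p = 5.32e-05) and CASC3 by 0.58, and the exon junction proteins RBM8A and MAGOH had log2 fold changes of -0.82 and -0.76. Without that library UPF3B was at 1.02, CASC3 at 0.38, RBM8A at -0.66 and MAGOH at -0.33. Of 8 mRNAs reported as substrates of this decay, 4 were called higher and 1 lower, in either fit. ATF3 rose by 3.00 (SE 0.17) and DDIT3 by 2.22 (SE 0.28), both of them transcription factors of the stress response, and ATF4 fell by 0.59 (SE 0.19, edgeR adjusted p = 0.0327). Without control replicate 3 these were 3.08, 2.68 and -0.26. In RS4;11 1 decay factor and 0 of these mRNAs were called without TOM-1 control replicate 3. These mRNAs are also regulated at transcription, and neither step was measured here.

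The share of all counts in the 10 hosts was set beside the share in ribosomal protein genes. The hosts took 0.107% and 0.106% of counts in TOM-1 control replicates 1 and 2, 0.173% in replicate 3, and 0.179% to 0.183% in treated TOM-1. Ribosomal protein genes took 9.21%, 8.95% and 19.75% in these controls, and 5.91% to 6.06% with ADI-PEG20. Both shares were high in control replicate 3, whereas with ADI-PEG20 the hosts were high and the ribosomal protein genes low. The hosts had 1.16, 1.18 and 0.878 counts per 100 ribosomal protein counts in the TOM-1 controls, and 3.02 to 3.04 with ADI-PEG20, so no control library lay near a treated one by this ratio. In RS4;11 the ratio was 1.08 to 1.20 in control and 1.08 to 1.27 with ADI-PEG20.

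**Figure D4:**
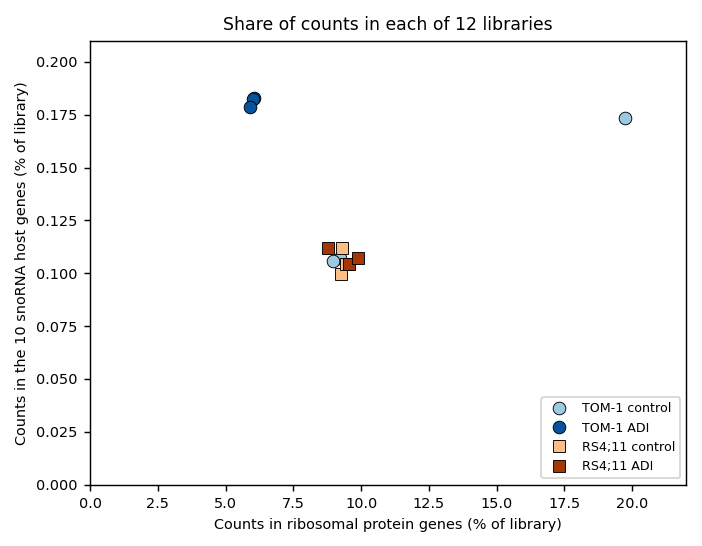
Percentage of each library's counts in ribosomal protein genes (x axis) and in the 10 host genes (y axis), 1 point for each of the 12 libraries. Treated TOM-1 sits at the upper left near 6% and 0.18%, TOM-1 control replicate 3 at the right at 19.75% and 0.173%, and the other 8 libraries together in the middle.

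Genes beside the hosts were examined because a start can be shared. SNHG1 and SLC3A2 start 188 bases apart on opposite strands. SLC3A2, the heavy chain of amino acid transporters, went from 478 ± 193 to 1030 ± 46.7 CPM in TOM-1 (SD, n = 3; log2 1.11, SE 0.21, edgeR adjusted p = 0.00204; 1.49 without control replicate 3). In RS4;11 it stood at 247 and 238 CPM. ZNFX1 starts 248 bases from ZFAS1 on the opposite strand and did not rise with it (log2 -0.19, SE 0.18, edgeR adjusted p = 0.477; -0.41 and called lower without control replicate 3). ZBTB37 starts 800 bases from GAS5. It had 9.0 ± 6.42 CPM in control and 22.7 ± 1.94 CPM with ADI-PEG20, which was called only without control replicate 3 (log2 0.84, edgeR adjusted p = 2.63e-04; adjusted p = 0.0611 with all libraries).

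Positions and overlaps were taken from GENCODE release 29 on GRCh38. GAS5 (ENSG00000234741) lies on chromosome 1 from 173863900 to 173868882, SNHG12 (ENSG00000197989) on chromosome 1 from 28578538 to 28583132, SNHG1 (ENSG00000255717) on chromosome 11 from 62851988 to 62855914, and SNHG5 (ENSG00000203875) on chromosome 6 from 85660950 to 85678748. ZFAS1 (ENSG00000177410) lies on chromosome 20 from 49278178 to 49295738, EPB41L4A-AS1 (ENSG00000224032) on chromosome 5 from 112160526 to 112164276, DANCR (ENSG00000226950) on chromosome 4 from 52712404 to 52720351, and SNHG8 (ENSG00000269893) on chromosome 4 from 118278709 to 118279823. SNHG15 (ENSG00000232956) lies on chromosome 7 from 44983023 to 44986961 and SNHG6 (ENSG00000245910) on chromosome 8 from 66921684 to 66926398. Whether counting used strand is not given in the sources used here, so reads of opposite-strand genes cannot be told apart. EPB41L4A-AS1 shares 49.6% of its exonic bases with EPB41L4A, which had at most 0.778 CPM on average in any group. SNHG6 shares 29.3% with MCMDC2, at most 2.10 CPM, and ZFAS1 shares 11.1% with ZNFX1. Same-strand overlaps were with the hosted snoRNAs and, for ZFAS1, also with 3 genes of the miscellaneous RNA type. They covered 20.9% of the exonic bases of ZFAS1, 15.3% of SNHG1, 14.2% of SNHG8 and at most 9.35% of the other hosts. Whether host reads over these bases were counted is not given.

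The hosted snoRNAs themselves were barely sampled. RefSeq places 34 snoRNA genes inside the 10 hosts, 22 of which had a row in the count table, and together these had 216 counts in all 12 libraries. SNORD99 in SNHG12 had 101 of these counts, SNORA13 in EPB41L4A-AS1 had 80 and SNORD12C in ZFAS1 had 28. These snoRNAs lie outside the annotated exons of their hosts, as do SNORD12B and SNORA26, which had 0 counts. Poly(A) capture selects against snoRNAs, which have no tail. How reads over a snoRNA inside an annotated host exon were counted is not given either. The snoRNA counts therefore do not measure snoRNA amounts and no comparison was made.

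The genes most like 2 of the hosts were found by Pearson's r over 12 libraries, on log2 CPM with the mean of each line taken out. For ZFAS1 they were NFU1 (r = 0.983), EIF1 (0.980) and GARS1 (0.978), and for GAS5 they were ZNF768 (0.982), RPL39L (0.979) and LIMD2 (0.972). These points share library depth, composition and the treated TOM-1 group, so r is a description. Among the other hosts, EPB41L4A-AS1 was 31st in likeness to ZFAS1 among the tested genes (r = 0.947) and SNHG8 was 120th (0.915), and SNHG8 was 86th for GAS5 (0.914). DANCR had r of -0.557 with ZFAS1 and -0.056 with GAS5, and -0.939 and -0.907 over the 11 libraries without TOM-1 control replicate 3.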

How the data were processed

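Read counts for each Ensembl gene in each library, unscaled, were deposited as a single table. Per the submitters' processing notes the build was hg38, and STAR, SAMtools and featureCounts were used; versions, strand, multi-mapping and overlap settings and the annotation release are not given in the sources used here. Columns were matched to samples through the labels, and 0 columns were left without a sample. Symbols were found for 60463 of 60664 identifiers, and 58396 were in GENCODE 29.

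The main test was edgeR 4.0.16 under R 4.3.3, with filterByExpr, TMM scaling, a group-means model over 12 libraries, glmQLFit and glmQLFTest, with Benjamini-Hochberg adjustment over all tested genes and a threshold of 0.05. SE is the log2 fold change divided by the square root of F. CPM use TMM-scaled totals. Alternatives were other scalings and filters, DESeq2 1.42.0, limma 3.58.1 with sample quality weights, a replicate block, only the libraries of a comparison, and leaving out each library; figures used matplotlib 3.10.9. Tested on simulated data over 16401 genes for the TOM-1 comparison, edgeR recovered 61 of 100 genes changed 2-fold and 86 of 100 changed 4-fold, with 7 false calls. Only 200 genes were changed there, each gene was drawn independently, and no library was made to depart as TOM-1 control replicate 3 did. Recovery and false calls in the real libraries may therefore differ.

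The members, lists and tests were chosen with earlier results of these data known. All 10 hosts are named whatever their values. From each list the text names up to 2 genes with the highest and 2 with the lowest log2 fold change in TOM-1 that passed the threshold with and without TOM-1 control replicate 3, and for likeness the 3 nearest genes to GAS5 and ZFAS1. Other list genes enter the counts only, and some items are not reported here.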

Additional observations from a re-analysis of the deposited data

Results flagged for a closer look

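The effect of ADI-PEG20 differed between TOM-1 and RS4;11, by the test of the difference itself over all 12 libraries, for 3 of the 10 host genes. Of all tested genes 11.9% were called. The log2 difference (TOM-1 minus RS4;11) was 1.35 for SNHG12 and 0.77 for SNHG1, and -1.62 for DANCR (edgeR, adjusted p = 0.0113, 0.00591 and 0.0128). In treated TOM-1 all 3 libraries lay outside the range of the TOM-1 controls for each of these genes, while the RS4;11 groups overlapped. Groups did not overlap for 46.2% of all tested genes in TOM-1 and 16.8% in RS4;11. The genes were picked by their call in these same libraries, so the overlaps describe them and are no further test.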

How the results depend on the processing

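The number of host genes called in TOM-1 was 6. It ranged from 4 to 8 when single libraries were dropped, and was 5 with upper-quartile scaling, 9 with sample quality weights, 3 using only the 6 TOM-1 libraries and 10 using those without TOM-1 control replicate 3, an alternative added after the data had been seen. It was 0 in RS4;11 under every alternative run. For the difference it was 3 (11.9%), from 3 to 7 over fits leaving out 1 library (6.39% to 30.4%) and 7 with sample quality weights (33.8%). For the control cultures it was 3 (34.7%), and from 1 to 7 over fits leaving out 1 library (25.7% to 52.8%). There it was 7 with quality weights (57.9%), 1 on the 6 control libraries alone (23.0%) and 6 on these without TOM-1 control replicate 3 (54.4%). SNHG1, SNHG12 and DANCR were called in TOM-1 in every fit, and ZFAS1 in all but that on the 6 TOM-1 libraries alone (adjusted p = 0.0834). GAS5, SNHG8 and SNHG15 in TOM-1 also passed with quality weights (log2 0.70, 1.24 and 0.25), and SNHG6 and SNHG8 with no filter on low counts (adjusted p = 0.0212 and 0.0309).

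Signs changed for small values. SNHG15 in TOM-1 was -0.026 with DESeq2 size factors, -0.069 with upper-quartile scaling, -0.025 with DESeq2, -0.018 on the 6 libraries alone, and -0.11 to 0.23 leaving out 1 library; its difference was -0.026 with upper-quartile scaling and -0.051 to 0.29 leaving out 1 library, and that of GAS5 -0.055 to 0.62. In RS4;11, SNHG1 was 0.00102 with upper-quartile scaling and 0.0058 with quality weights; leaving out 1 library gave -0.041 to 0.041 for SNHG1, -0.018 to 0.085 for SNHG6, -0.30 to 0.019 for SNHG12, -0.24 to 0.033 for SNHG15 and -0.25 to 0.0071 for DANCR. Between control cultures, SNHG6 was -0.19 and EPB41L4A-AS1 -0.33 with quality weights, -0.20 and -0.35 on 5 control libraries without TOM-1 replicate 3, and -0.19 to 0.59 and -0.33 to 0.32 leaving out 1 library; SNHG1 was -0.00011 on those 5. The causes were not tested.

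Deviations of same-numbered libraries from their group means correlated at -0.0623 to 0.145, and not every library correlated best with its own number. The highest value was that of replicate 3 in RS4;11. With 3 libraries a group these values neither show nor exclude pairing by number. With the replicate number as a block, 6, 0, 3 and 2 host genes were called in TOM-1, RS4;11, the difference and the control cultures. Of all tested genes 30.7%, 0.0%, 11.2% and 32.5% were called. GAS5 lost its call between the control cultures (edgeR adjusted p = 0.0529). Depth limits SNHG5 most, with 163 counts in 1 library.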
